A study of Mus musculus with 6 samples.

Results

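The genes described here encode 9 amino acid transporters of the plasma membrane. They are Slc7a5, Slc3a2, Slc7a1, Slc7a6, Slc7a11, Slc1a4, Slc1a5, Slc38a1 and Slc38a2, chosen by gene name, and all 9 were found in every library among 47643 annotated gene IDs. Their transcripts were sequenced from induced regulatory T cells (iTreg) of C57BL/6 mice with the Foxp3-DTR/EGFP reporter. Splenic CD4+ T cells were held for 2 days with TGF-β and antibodies against CD3 and CD28, then exposed for 6 h to vehicle (DMSO, 3 libraries) or to 100 nM prostaglandin E2 (PGE2, 3 libraries), and the GFP-positive, that is Foxp3+, cells were sorted. Both groups share the reporter, the strain and the skewing culture, so neither group is a resting or unmanipulated regulatory T cell. Whether replicates are separate animals or separate cultures is not stated in the labels. The p-values below therefore measure only the spread between these libraries. The series title names the PGE2 receptors EP2 and EP4 and the regulatory T cells found in tumours, which were not analysed here.

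Amino acids enter an activated T cell through several kinds of carrier. Slc1a5 and the Slc38 carriers bring in glutamine and other small neutral amino acids with sodium. LAT1, the product of Slc7a5 joined by a disulfide bond to the chaperone chain CD98hc encoded by Slc3a2, exchanges intracellular amino acids for leucine and other large neutral ones. Slc7a1 carries arginine and lysine, and Slc7a11 pairs with the same CD98hc chain to take up cystine. T cell receptor signals raise many of these carriers through MYC, and leucine and arginine brought in by them are sensed by the kinase complex mTORC1. When amino acids run short, the kinase GCN2 raises the factor ATF4, which acts on elements in the genes of several of these carriers.

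Promoter windows in the RefSeq-derived table on GRCm38.p6 (the build called mm10 in the labels) were found for 6 of the 9 genes: Slc3a2, Slc7a1, Slc7a6, Slc7a11, Slc1a4 and Slc38a2. Each table window runs from 250 bases before a transcript start to 50 after it. Both strands were searched for TGATGNAAN, the core of the element read by ATF4 with C/EBP partners, for the MYC and MAX E-box CACGTG, for the full cAMP response element TGACGTCA, and for TGACG, its conserved part. The full element holds TGACG on each strand, so those searches overlap. The 4 windows below are shown because they hold the ATF4-type core (Slc1a4 and Slc7a11) or TGACG beginning at most 27 bases before the start. The latter are Slc7a6, the first of its 2 windows, and Slc38a2. In Slc7a6 the match begins 1 base before the start and reaches past it. Each is printed to 10 bases past the start, 5′ to 3′ on the strand of the gene, with matches in capitals.
Slc1a4, chr11:20332704-20332963, minus strand: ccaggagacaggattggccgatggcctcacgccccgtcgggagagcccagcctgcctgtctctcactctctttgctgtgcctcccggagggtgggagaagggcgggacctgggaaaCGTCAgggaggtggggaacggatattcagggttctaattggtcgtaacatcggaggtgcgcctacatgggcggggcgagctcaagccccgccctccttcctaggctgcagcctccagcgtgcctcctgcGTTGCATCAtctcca
Slc7a11, chr3:50443604-50443863, minus strand: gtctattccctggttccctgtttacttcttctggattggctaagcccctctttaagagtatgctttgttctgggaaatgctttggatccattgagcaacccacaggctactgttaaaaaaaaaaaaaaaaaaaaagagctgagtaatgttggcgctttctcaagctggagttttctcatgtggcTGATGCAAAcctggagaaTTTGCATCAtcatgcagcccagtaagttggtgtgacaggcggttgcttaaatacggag
Slc7a6, chr8:106168604-106168863, plus strand: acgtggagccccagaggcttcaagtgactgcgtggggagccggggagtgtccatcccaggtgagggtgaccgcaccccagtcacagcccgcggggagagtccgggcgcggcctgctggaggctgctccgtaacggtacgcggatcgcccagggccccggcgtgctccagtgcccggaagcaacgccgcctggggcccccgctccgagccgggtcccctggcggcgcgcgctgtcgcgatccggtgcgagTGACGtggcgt
Slc38a2, chr15:96699719-96699978, minus strand: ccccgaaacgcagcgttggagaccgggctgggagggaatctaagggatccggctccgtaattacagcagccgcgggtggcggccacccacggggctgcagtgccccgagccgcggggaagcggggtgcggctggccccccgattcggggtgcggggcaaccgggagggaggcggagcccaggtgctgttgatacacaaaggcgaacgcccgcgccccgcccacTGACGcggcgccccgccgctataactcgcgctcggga
The ATF4-type core was found in 2 of the 6 genes. Slc7a11 held it once on each strand, beginning 66 and 48 bases before the start, and Slc1a4 held it on the reverse strand, beginning 5 bases before the start and reaching past it. This core was in 3.95% of all 32851 windows, and 4.5% of all 27025 genes held it in at least 1 window. TGACG was found in 4 of the 6 genes, Slc1a4, Slc7a6, Slc38a2 and Slc7a1, and in 23% of all genes. By windows it was in 5 of 8, of which the 2 of Slc7a6 share a match, and in 20.8% of all. Slc7a1 held TGACG 184 bases before the start on the reverse strand and 15 bases after it, beyond the stretch printed for the others. CACGTG and TGACGTCA, present in 7.15% and 1.79% of all windows, were in none of the 6. The matches are descriptions of letters in these windows.

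Levels are given as FPKM, in which fragments are divided by transcript length and by library size, so that genes can be set side by side. Where 3 values follow each other, they are those of replicates 1, 2 and 3 in this order. With vehicle the order of the means ran from Slc3a2, Slc1a5 and Slc7a5 through Slc38a2, Slc38a1, Slc7a1 and Slc7a6 down to Slc1a4 and Slc7a11. The libraries of Slc3a2 and Slc1a5 overlapped, as did those of Slc1a5 and Slc7a5, and every other pair of neighbours in this order was separate. With PGE2 the order of the means was the same, but Slc3a2 lay clear of Slc1a5 and Slc1a5 of Slc7a5, while Slc7a5 overlapped Slc38a2, and Slc7a1 overlapped Slc7a6. Over the 6 libraries Slc3a2 had a mean of 67.7 FPKM, at the percentile 91.2 of all 12113 tested genes, and Slc7a6 one of 14 FPKM, at the percentile 59.7. Read depth over the gene gave another order at the top. As coverage per gigabase of sequenced fragments, Slc7a5 came first with 48.6 ± 7.14 with vehicle (SD, n = 3), ahead of Slc1a5 with 33.8 ± 5, while Slc3a2 was at 10.5 ± 1.39. The ratio of coverage to FPKM for Slc3a2, which has 9 transcripts in GENCODE M21, was 0.15 to 0.154 of the library constant, against 0.938 to 0.949 for Slc7a5. The rank of Slc3a2 among the carriers therefore differs between the 2 deposited measures, and its level relative to Slc7a5 is uncertain.

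**Figure D1:**
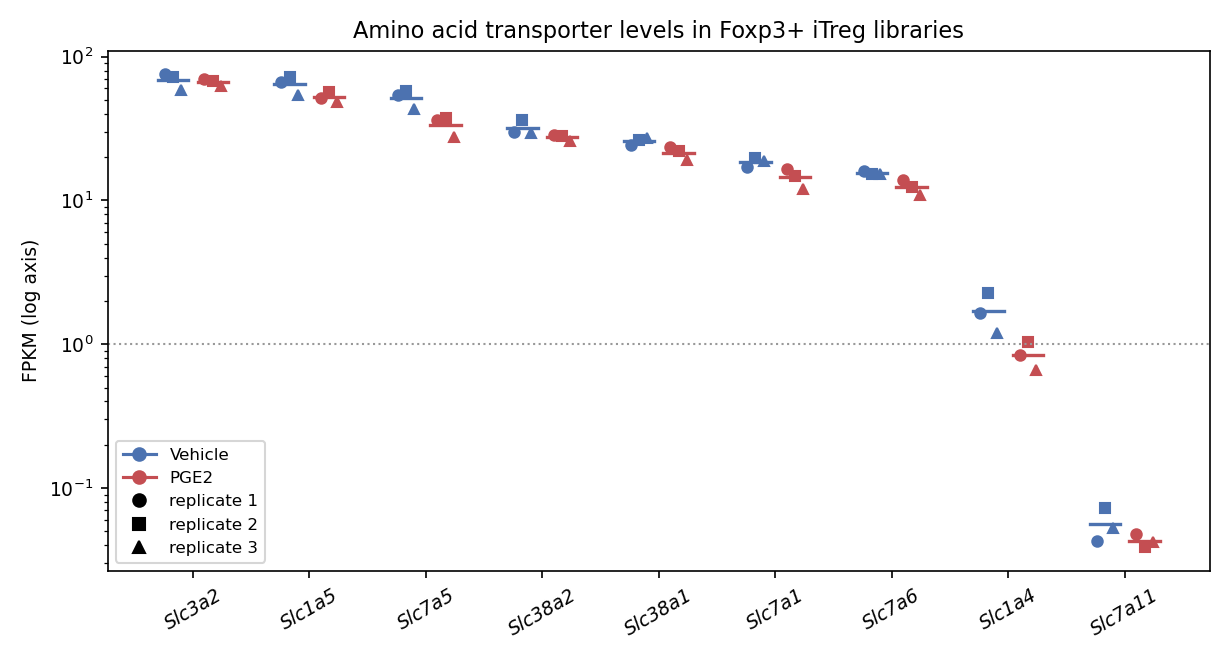
FPKM on a log axis for each of the 9 genes in each library, with vehicle in blue, PGE2 in red, marker shape for the replicate number, bars for group means and a dotted line at 1 FPKM. Slc7a5 stands at 43.1 to 57.5 FPKM with vehicle and 27.4 to 37.2 with PGE2, and Slc7a11 lies under 0.1 FPKM in every library.

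The libraries were of similar depth, 3.996 to 5.446 gigabases of fragments, replicate 3 being the shallowest of each group. All 8 T cell and regulatory T cell markers listed, Foxp3, Il2ra, Cd4 and Cd3e among them, were above 1 FPKM, and their sum was 1810 to 1910 FPKM with vehicle and 2300 to 2360 with PGE2. Of the 8, 7 had a higher mean with PGE2. The largest differences in FPKM were in Tnfrsf18 (412 ± 70.4 to 707 ± 42.3) and Ctla4 (199 ± 7.14 to 345 ± 5.93). Foxp3 went from 92.1 to 115 FPKM, Cd4 from 161 to 176 and Cd3e from 146 to 154. Il2ra was the 1 with a lower mean (691 to 640). The summed markers of B cells were 3.91 to 5.8 FPKM with vehicle and 3.65 to 4.4 with PGE2, with all but Cd79a and Cd79b of the 8 under 0.1 FPKM on average. The sum for NK and CD8 T cells was 7.75 to 9.72 FPKM with vehicle and 10.4 to 13.5 with PGE2, mostly from Cd8b1 and Klrd1, with Ncr1 and Klrb1c at 0 in every library. Myeloid markers summed to at most 1.21 FPKM, with S100a8 and S100a9 at 0, and erythroid markers to at most 2.53. The sum for NK and CD8 T cells and that of the T cell markers were thus both higher in every PGE2 library. Of the NK and CD8 genes above 1 FPKM, the groups did not overlap in Cd8b1 and overlapped in Klrd1 and Gzma. Klrd1 was at 0.961, 0.627 and 2.78 FPKM with vehicle and at 2.54, 2.26 and 4.5 with PGE2, so higher in each same-numbered pair. Its log2 difference was 0.8 (adjusted p = 0.38 by limma). In the fit with the replicate number as a block, described below, Klrd1 rose (adjusted p = 0.033 by limma), as did 1.77% of all tested genes. The part of either sum in the carrier results was not tested.

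Genes were compared between PGE2 and vehicle with limma on log2(FPKM + 1) over all 12113 genes whose mean reached 1 FPKM. Of the 9 carriers 8 passed this filter, and 0 rose and 0 fell at an adjusted p under 0.05. Of all tested genes 0.809% were called at this threshold, 0.57% as higher and 0.239% as lower. All 8 had a lower mean level with PGE2, Slc3a2 by a margin whose sign depended on single libraries, as did 56.7% of all tested genes, and their median log2 difference was -0.3 against -0.03 over all tested genes. At an unadjusted p under 0.05, 5 of the 8 were lower and 0 higher (7.59% and 5.46% of all tested genes). In 6 of the 8 all PGE2 libraries lay below all vehicle libraries, which held for 11.9% of all tested genes. Within all 3 same-numbered pairs 7 of the 8 were lower, as were 24.5% of all tested genes. Slc1a4 passed the filter only through its vehicle libraries, so its difference is in part a condition of its being counted. Median ratio scaling brought the median of all genes to 0 and that of the carriers to -0.26. Replicate numbers were taken to pair the samples, although the check behind this sets replicate 3 apart and does not tell numbers 1 and 2 apart. With the replicate number as a block 1 carrier, Slc7a5, fell, where 1.49% of all tested genes fell and 1.77% rose, and 0 rose. In sorted bulk samples, fewer cells that express a gene and less RNA per cell cannot be told apart.

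**Figure D2:**
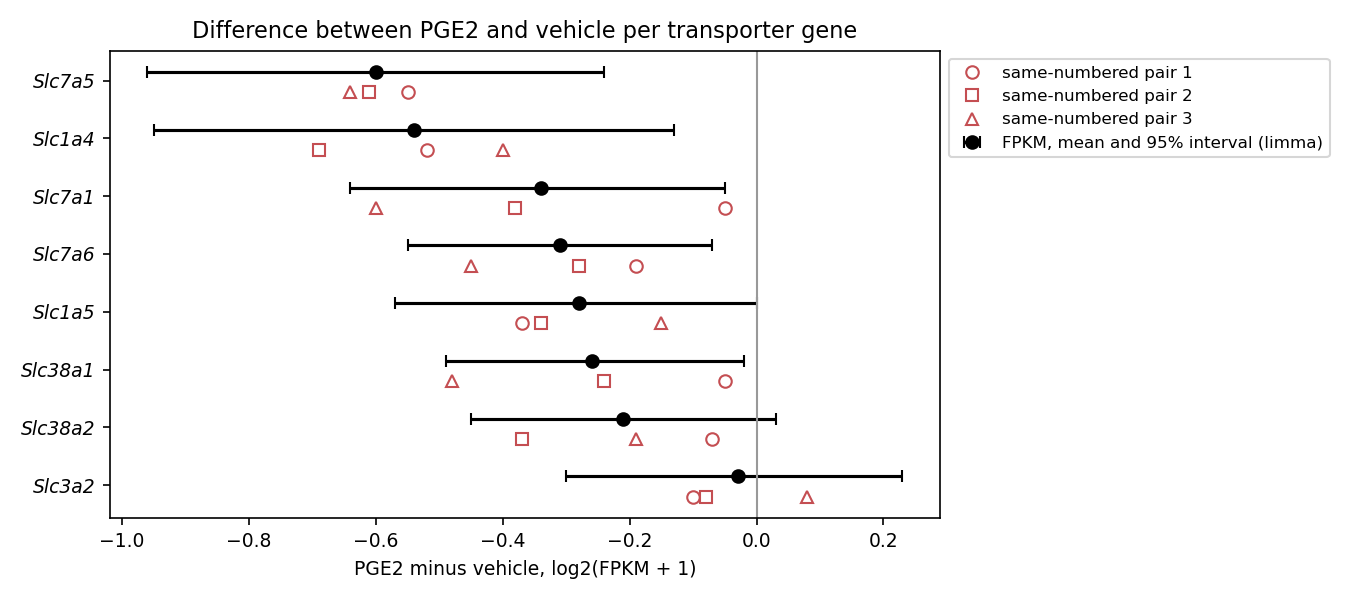
Difference between PGE2 and vehicle on the log2(FPKM + 1) scale for the 8 tested genes, with the limma mean and its 95% interval in black and the difference within each same-numbered pair of libraries in red. The 3 pairs of Slc7a5 lie together between -0.64 and -0.55, those of Slc7a1 spread from -0.6 to -0.05, and those of Slc3a2 fall on either side of 0.

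Slc7a5 (ENSMUSG00000040010.10, chromosome 8 from 121881150 to 121907694, minus strand), the transport chain of LAT1, had the largest difference among the tested carriers on the log2(FPKM + 1) scale. The vehicle libraries gave 53.8, 57.5 and 43.1 FPKM and the PGE2 libraries 36.4, 37.2 and 27.4. Every PGE2 library lay below every vehicle library, and replicate 3 was the lowest of its group in each case. The mean went from 51.5 ± 7.5 to 33.7 ± 5.47 FPKM (SD, n = 3), a log2 difference of -0.6 (SE 0.15, 95% interval -0.96 to -0.24) or 1.52-fold lower on the log2(FPKM + 1) scale, with adjusted p = 0.15 by limma. With the replicate block Slc7a5 fell (SE 0.07, adjusted p = 0.013 by limma), and in coverage with the block the adjusted p was 0.008 at a log2 difference of -0.61. With the block the call was lost without the pair numbered 2 or 3 (adjusted p = 0.06 and 0.061 by limma) and held without the pair numbered 1 (0.0028). Without the block, leaving out the pair numbered 3 gave adjusted p = 0.046. Over all settings tried the log2 difference stayed between -0.72 and -0.46, with adjusted p between 0.0028 and 0.79. A gene model on the opposite strand, Gm20388, spans the Slc7a5 locus, and whether reads were counted by strand is not given in the sources used here. Its own level was 19.9 ± 1.43 FPKM in the vehicle libraries and 21.2 ± 3.66 in the PGE2 libraries (limma, adjusted p = 0.89).

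Slc3a2 (ENSMUSG00000010095.13, chromosome 19 from 8706882 to 8723369), the CD98hc chain that carries LAT1 and its relatives to the cell surface, had a mean difference near 0. The vehicle libraries gave 75.2, 71.8 and 58.8 FPKM and those with PGE2 69.9, 67.9 and 62.3. The groups overlapped, with the vehicle replicate 3 below all PGE2 libraries. The log2 difference was -0.03 with a 95% interval of -0.3 to 0.23 (adjusted p = 0.93 by limma), which leaves out a decrease as large as the mean difference of Slc7a5. Its sign turned when single libraries were left out.

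The gap between the 2 subunits of LAT1 was compared within each library. On the log2(FPKM + 1) scale Slc7a5 minus Slc3a2 was -0.48, -0.32 and -0.44 in the vehicle libraries and -0.92, -0.85 and -1.16 in those with PGE2. All PGE2 libraries were below all vehicle libraries. The mean went from -0.41 ± 0.08 to -0.98 ± 0.16 (SD, n = 3), a shift of -0.57 with p = 0.1 in a two-sided exact permutation test, the smallest p that 3 libraries against 3 allow. In coverage the same gap was 2.11 ± 0.1 with vehicle and 1.55 ± 0.15 with PGE2. The sign of the gap thus depends on the measure, while its shift of -0.56 in coverage was close to that in FPKM.

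**Figure D3:**
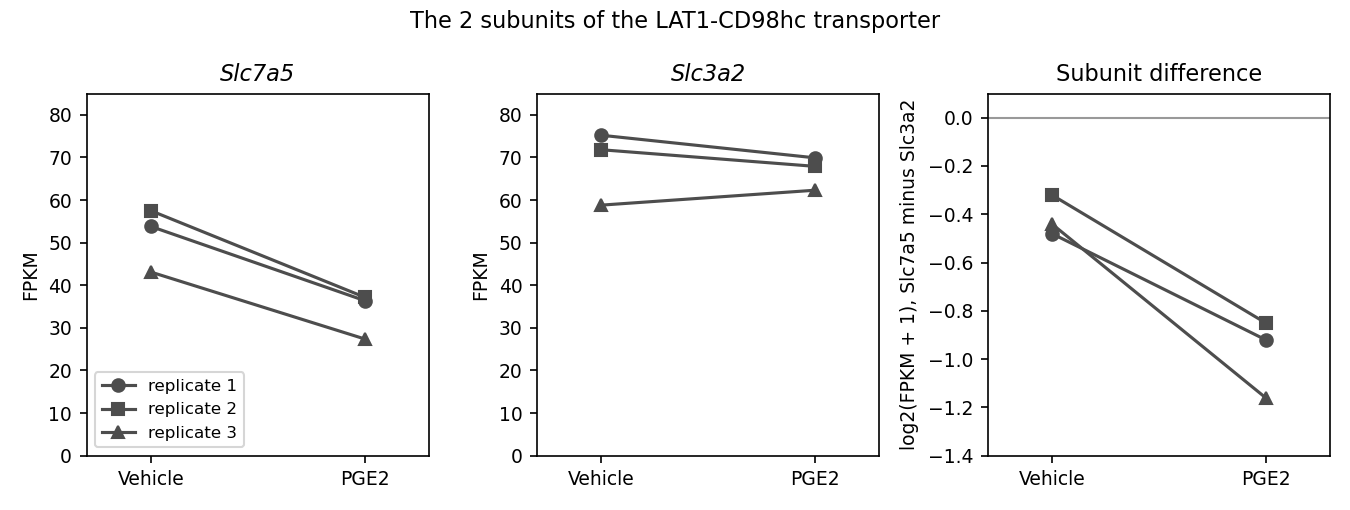
FPKM of Slc7a5 and of Slc3a2 in vehicle and PGE2 libraries, joined by replicate number, and the difference between their log2(FPKM + 1) values. Slc7a5 is lower with PGE2 in each of the 3 pairs, Slc3a2 stays between 58.8 and 75.2 FPKM, and the difference goes from -0.41 to -0.98 on average.

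Other carriers of the Slc7 family had smaller mean differences. Slc7a1 (ENSMUSG00000041313.14, chromosome 5 from 148327410 to 148399904), the main carrier of arginine and lysine, was at 17.2, 19.7 and 18.8 FPKM with vehicle and at 16.5, 14.9 and 12.1 with PGE2. The groups did not overlap, but in the pair numbered 1 the values were close, with a log2 difference of -0.05 against -0.38 and -0.6 in the others. The log2 difference was -0.34 (SE 0.12) with adjusted p = 0.3 by limma. Slc7a1 passed in 1 of the settings tried, with the block and without the pair numbered 1 (adjusted p = 0.024, log2 difference -0.49), which is the pair in which it differed least. Slc7a6 (ENSMUSG00000031904.4, chromosome 8 from 106168875 to 106198704), which forms the exchanger y+LAT2 with CD98hc, was at 16, 15.3 and 15.3 FPKM with vehicle and at 13.9, 12.4 and 10.9 with PGE2. All of its PGE2 libraries lay below the vehicle libraries, whose spread was the narrowest among the well expressed carriers (SD 0.42). Its log2 difference was -0.31 (SE 0.1, adjusted p = 0.26 by limma, 0.12 with the block).

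Slc7a11 (ENSMUSG00000027737.10, chromosome 3 from 49892526 to 50443614), the cystine carrier xCT, was hardly detected. It was at 0.0429, 0.0724 and 0.053 FPKM with vehicle and at 0.048, 0.0388 and 0.0423 with PGE2, in groups that overlapped. Its coverage was 0.147 to 0.365 reads per base, so less than 1 read lay over an average base of the gene in every library. It did not pass the filter on low values, was not tested, and no direction can be read at this depth. Its promoter window holds the ATF4-type core on each strand, as printed above.

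Of the Slc1 pair, Slc1a4 (ENSMUSG00000020142.12, chromosome 11 from 20302180 to 20332713), the carrier ASCT1 for alanine, serine and cysteine, was low. It was at 1.65, 2.27 and 1.2 FPKM with vehicle and at 0.844, 1.03 and 0.666 with PGE2, and the groups did not overlap. Its mean in FPKM with PGE2 was 0.495 of that with vehicle. The log2 difference was -0.54 (SE 0.17, adjusted p = 0.24 by limma), and -0.91 with a pseudocount of 0.1 in place of 1, since the pseudocount holds down the change of a low gene. With the block the adjusted p by limma was 0.078 in FPKM and 0.018 in coverage, at log2 differences of -0.54 and -0.53. The call thus differed although the 2 measures nearly matched for Slc1a4, with a ratio of coverage to FPKM at 0.986 to 1 of the library constant. Slc1a5 (ENSMUSG00000001918.17, chromosome 7 from 16781340 to 16798274), the glutamine carrier ASCT2, was among the 3 most abundant carriers by either measure. It was at 66.3, 71.8 and 53.9 FPKM with vehicle and at 51.2, 56.7 and 48.6 with PGE2. The groups overlapped through vehicle replicate 3, although each PGE2 library was below the vehicle library of its own number. Its log2 difference was -0.28 (SE 0.12, adjusted p = 0.39 by limma, 0.12 with the block).

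The 2 sodium-coupled carriers of the Slc38 family lie side by side on chromosome 15, with 44480 bases between them. Slc38a1 (ENSMUSG00000023169.14, from 96571418 to 96642913), which takes up glutamine, was at 24.2, 26.3 and 27 FPKM with vehicle and at 23.4, 22.1 and 19 with PGE2. Slc38a2 (ENSMUSG00000022462.6, from 96687394 to 96699698), a system A carrier known to rise when amino acids are withdrawn, was at 30.1, 36.4 and 29.6 FPKM with vehicle and at 28.7, 27.9 and 25.8 with PGE2. In neither gene did the groups overlap, but in replicate 1 the distance was small, with log2 differences of -0.05 and -0.07. The log2 differences were -0.26 (SE 0.1, adjusted p = 0.34 by limma) for Slc38a1 and -0.21 (SE 0.1, adjusted p = 0.46 by limma) for Slc38a2.

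The carriers differed in how closely their profiles across the libraries matched. Likeness between 2 genes was taken as the root mean square difference of their log2(FPKM + 1) values over the 6 libraries, each gene centred on its own mean. Among the 28 pairs of tested carriers the closest were Slc7a1 with Slc38a1 (0.066), Slc7a6 with Slc38a1 (0.073) and Slc7a1 with Slc7a6 (0.084). These 3 genes shared a small distance between the groups in replicate 1 and a larger one in replicate 3. Slc7a5 was closest to Slc1a4 (0.102), and both were lower in each pair, with log2(FPKM + 1) differences of -0.64 to -0.55 and of -0.69 to -0.4. Slc1a4 lay at 0.666 to 2.27 FPKM, where the pseudocount of 1 holds down its change. With 0.1 the mean log2 difference was -0.91 for Slc1a4 and -0.61 for Slc7a5, and likeness was not computed at that pseudocount. The minimum of 10 FPKM used below for other genes was not set for the carriers. With the pseudocount of 1 the 2 subunits of LAT1 were the least alike of the 28 pairs (0.302). Even this was below the median distance of other genes to Slc7a5 given next (0.374). Such a median was not computed for the other carriers. Among 6057 other genes whose mean reached 10 FPKM, the 3 closest to Slc7a5 were Atad3a (0.065), a protein of the mitochondrial membrane, Nop56 (0.065), a core protein of box C/D snoRNPs, and Srm (0.07), spermidine synthase, where the median over these genes was 0.374. Srm went from 49.2, 48.6 and 36.1 FPKM with vehicle to 28.1, 30.3 and 22.8 with PGE2. Its adjusted p was 0.0095 with the block and 0.1 without it by limma. In Atad3a and Nop56 the log2 differences were -0.58 and -0.52, and their adjusted p was 0.019 for each with the block and 0.12 and 0.2 without it by limma. These 3 genes were picked for their likeness to Slc7a5 over the same 6 libraries, so their differences follow from the choice and are given as a description.

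Beyond these 9 genes, few other amino acid carriers of the plasma membrane were expressed. Of 34 listed genes 4 were tested, and 0 rose and 0 fell by limma. The 4 were Slc38a10, Slc6a6, Slc43a2 and Slc7a3, of which Slc43a2 was lower at an unadjusted p under 0.05, as were 7.59% of all tested genes. Their median log2 difference was -0.21, and -0.1 in coverage, where Slc38a10 was at -0.07. Slc38a10 was at 23.7 ± 3.54 and 19.9 ± 1.19 FPKM and the taurine carrier Slc6a6 at 16.4 ± 1.15 and 14.4 ± 2.73. Slc43a2, a carrier of large neutral amino acids that works without CD98hc, was at 4.97 ± 0.297 and 3.8 ± 0.596 FPKM, a log2 difference of -0.32 that was -0.05 in coverage. Of 10 tested lysosomal carriers 0 were called. At an unadjusted p under 0.05, 1 of them was lower, against 7.59% of all tested genes. This was Slc29a3, which carries nucleosides and not amino acids. The highest of the 10 with PGE2, Slc15a4, was at 6.57 ± 0.546 and 6.75 ± 0.208 FPKM. The list median was -0.1, and -0.05 in coverage.

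In a list of genes that respond to amino acid shortage through GCN2 and ATF4, 21 tested genes had a lower and 6 a higher mean level with PGE2. Over all tested genes 56.7% were lower. Of 27 tested genes 1 fell and 0 rose by limma. With the block 4 fell, and without it 7 had an unadjusted p under 0.05 as lower genes and 1 as a higher gene. Over all tested genes 0.239% fell, 1.49% fell with the block, and an unadjusted p under 0.05 was found for 7.59% as lower and 5.46% as higher genes. The list median was -0.13. Shmt2, the mitochondrial serine hydroxymethyltransferase, was at 69.4, 72 and 67.6 FPKM with vehicle and at 43.1, 50.5 and 44.3 with PGE2. It fell by 0.59 on the log2 scale (SE 0.09, adjusted p = 0.038 by limma), and missed the threshold whenever 1 library was left out (0.07 to 0.19). Asns, asparagine synthetase, was at 14.5, 17.4 and 19 FPKM with vehicle and at 9.39, 11.5 and 11.6 with PGE2, in groups that did not overlap. With the block Asns, Chac1, a glutathione-degrading enzyme, and Aars, alanyl-tRNA synthetase, fell (adjusted p = 0.017, 0.016 and 0.036 by limma). Without it their adjusted p was 0.095, 0.2 and 0.11. Chac1, at a mean of 2.64 FPKM with vehicle and 0.979 with PGE2, passed the filter on low values only through its vehicle libraries. The call of Aars with the block was lost in coverage (adjusted p = 0.078, log2 difference -0.26 against -0.51 in FPKM) and with median ratio scaling (0.059). Psat1, Nars and Nupr1 were the other genes lower at an unadjusted p under 0.05, and Aldh18a1, an enzyme of proline synthesis, was the higher one, at 41.7 ± 3.1 and 53.6 ± 5.94 FPKM (log2 difference 0.35, adjusted p = 0.23 by limma). Atf4 itself had a mean of 150 ± 25.8 FPKM in vehicle and 123 ± 25.9 in PGE2 libraries (limma, adjusted p = 0.58). The rest of the list varied. Log2 differences were near 0 in Trib3 (-0.02), Ddit4 (-0.03) and Atf3 (0), while Wars had one of 0.16 (adjusted p = 0.51 by limma). Ddit3 had one of -0.44, at 36.6 ± 12.8 FPKM with vehicle and 25.6 ± 3.47 with PGE2, in groups that overlapped (adjusted p = 0.55 by limma). Phgdh, the first enzyme of serine synthesis and the highest of the list, was at 154 ± 5.73 and 147 ± 13.2 FPKM.

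**Figure D4:**
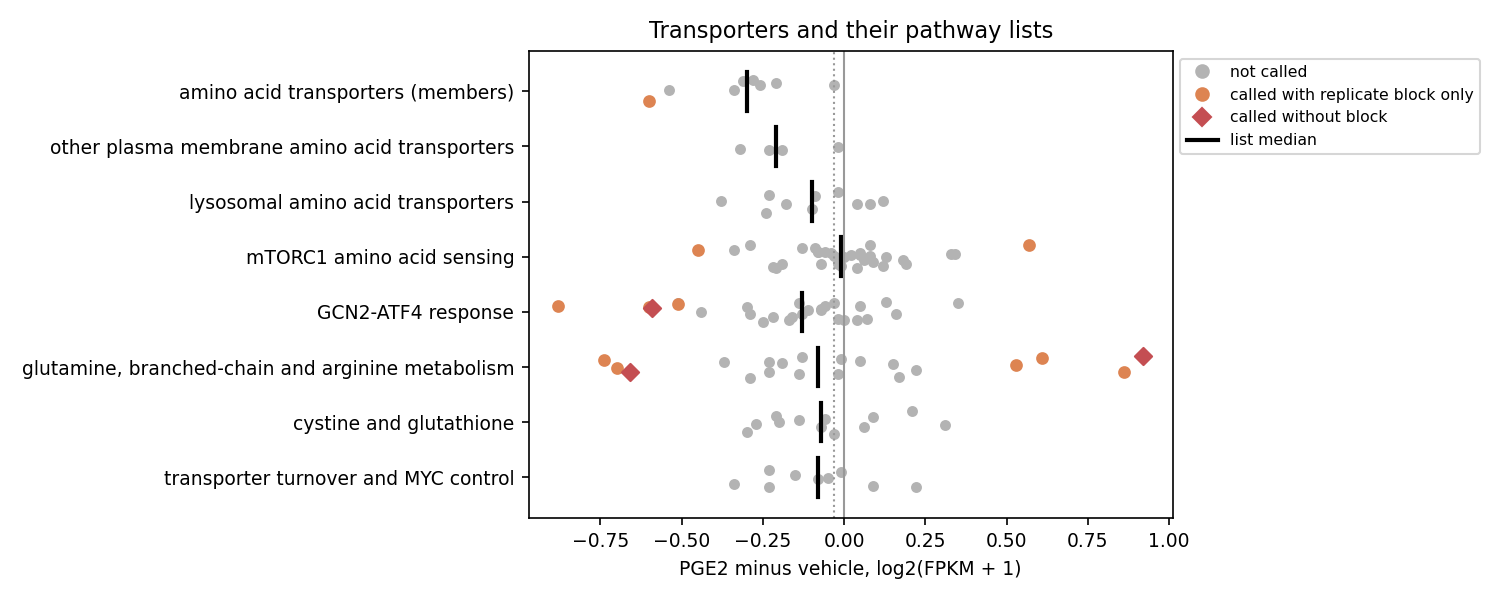
Log2 differences between PGE2 and vehicle for every tested gene of the 9 carriers and of 7 lists of related genes, with a black bar at each list's median and a dotted line at the median of all tested genes, -0.03. Red diamonds mark genes called without the block, the fallers Shmt2 and Bcat1 and the riser Got1, and orange points those called with the block only.

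Enzymes that use the imported amino acids moved in both directions. Of 20 tested genes of glutamine, branched-chain and arginine metabolism 1 rose and 1 fell by limma, against 0.57% and 0.239% of all tested genes. With the block 4 of them rose and 3 fell, where 1.77% of all tested genes rose and 1.49% fell. Got1, the cytosolic aspartate aminotransferase, was at 29.9, 27.4 and 23.6 FPKM with vehicle and at 56.5, 55.7 and 43.4 with PGE2. It rose by a log2 difference of 0.92 (SE 0.13, adjusted p = 0.034 by limma). It still passed without PGE2 replicate 3 (0.028) and missed the threshold when any of the other 5 libraries was left out (up to 0.17). Bcat1, the cytosolic aminotransferase of leucine, isoleucine and valine, was at 10.9, 11.9 and 10.5 FPKM with vehicle and at 6.81, 7.43 and 5.84 with PGE2. It fell by 0.66 on the log2 scale (SE 0.11, adjusted p = 0.049 by limma), by 0.47 in coverage (adjusted p = 0.056), and missed the threshold when any library was left out (0.074 to 0.21). With the block the glutaminase gene Gls2, the glutamate dehydrogenase gene Glud1 and Odc1, ornithine decarboxylase, also rose, and Srm and Kynu, kynureninase, also fell. Odc1 went from 161 ± 21.7 to 246 ± 26.3 FPKM (adjusted p = 0.023 with the block by limma, 0.095 without) and Glud1 from 83.1 ± 5.78 to 121 ± 14.6 (0.021 and 0.097). Sms, spermine synthase, had a log2 difference of -0.37 (adjusted p = 0.34 by limma). The list median was -0.08, and -0.02 both in coverage and without vehicle replicate 1.

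The sensors of amino acids had a median difference near 0. Of 33 tested genes of mTORC1 and its amino acid sensing arms 0 were called by limma. An unadjusted p under 0.05 was found for 3 higher and 2 lower genes, against 5.46% and 7.59% of all tested genes. The list median was -0.01. Of the 33 genes 1 rose and 1 fell with the block, where 1.77% of all tested genes rose and 1.49% fell. With the block Gatsl2, a member of the CASTOR family of arginine sensors, rose from 5.38 ± 0.568 to 8.51 ± 1.56 FPKM (adjusted p = 0.033 by limma). Sesn2, a leucine sensor that ATF4 induces, fell with the block from 25.1 ± 5.49 to 17.9 ± 2.55 FPKM (adjusted p = 0.039). Their adjusted p was 0.14 and 0.31 without the block, and with the block and median ratio scaling the call of Sesn2 was lost (0.057). The other genes at an unadjusted p under 0.05 were Sesn1 and Sesn3, with log2 differences of 0.34 and 0.33, and Wdr59, with -0.29 (adjusted p = 0.18, 0.21 and 0.23 by limma). Sec13 and Lamtor1, the highest of the list, were at 74.1 ± 3 and 54.8 ± 3.81 FPKM with vehicle and at 76 ± 3.05 and 54.1 ± 0.853 with PGE2.

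Of 12 tested genes for glutathione, thioredoxin and the response to oxidative stress 0 were called by limma. An unadjusted p under 0.05 was found for 1 higher and 3 lower genes, against 5.46% and 7.59% of all tested genes. Gclm, the modifier chain of the enzyme that starts glutathione synthesis, was at 7.15 ± 0.229 and 5.64 ± 0.0507 FPKM (adjusted p = 0.19), and Gpx4, a glutathione peroxidase for lipids, at 121 ± 7.24 and 150 ± 14.8 FPKM (adjusted p = 0.25). Txn1, thioredoxin and the highest of the list, was at 238 ± 45.3 and 255 ± 59.9 FPKM. Gclc and Gss were the other genes lower at an unadjusted p under 0.05. The list median was -0.07. Of 9 tested genes for MYC with its partner MAX and for turnover of carriers 0 were called by limma, 0 with the block, and 0 had an unadjusted p under 0.05. Myc was at 110, 74.6 and 86.4 FPKM with vehicle and at 81.1, 60.1 and 71.8 with PGE2, so each PGE2 library was below the vehicle library of its number while the groups overlapped (log2 difference -0.34, SE 0.17, adjusted p = 0.46 by limma, 0.071 with the block). Txnip, the highest of that list, was at 94.8 ± 12 and 94.2 ± 10.5 FPKM. The median of that list was -0.08, was -0.05 in coverage, and turned to 0.01 without PGE2 replicate 3.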

How the data were processed

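RNA was sequenced in 3 vehicle and 3 PGE2 libraries. Per the labels' protocols, RNA from sorted cells went into a stranded kit for polyadenylated mRNA. Per the submitters' processing notes, the authors used Trim Galore and HISAT2 on mm10. The sources used here do not state their versions, the annotation or the counting program. Per the file headers, the deposited tables give FPKM, coverage and TPM per gene. The authors scaled FPKM to transcript length and library size. The deposited coverage signal is mean read depth and is not scaled. The deposited TPM values were taken as a score and not used, since each locus is listed again under its gene and the column total is 1.914 to 1.942 times that of the assembled loci.

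Entries under an annotated gene were used, with repeated IDs summed. The 12113 genes whose mean reached 1 FPKM were tested as log2(FPKM + 1), which understates the change of low genes, with limma 3.58.1 (R 4.3.3; trended moderated variance, no covariate, Benjamini-Hochberg over all tested genes, two-sided, threshold 0.05). As depth served the library constant that links coverage to FPKM. In each library 97.4% to 97.9% of the 2165 to 2295 single-transcript genes lay within 1% of it. Without counts no interval for counting error could be given. Libraries with the same number in their titles had correlated deviations across genes (0.23, 0.31 and 0.53 for the 3 pairs). Each was above 0.1, so the numbers were taken to pair the samples, which the labels do not state. Numbers 1 and 2 are not told apart: vehicle replicate 2 correlated with PGE2 replicate 1 at 0.27 and vehicle replicate 1 with PGE2 replicate 2 at 0.15, while both numbers ran against replicate 3 (-0.43 to -0.29). Figures were drawn with matplotlib 3.10.9.

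The carriers, the 7 lists of related genes and the marker lists were chosen with earlier results of these data known. Named genes are all 9 carriers, up to 3 called genes per list or its 2 highest where none was called, optionally list genes at an unadjusted p under 0.05, and the 3 genes most like Slc7a5. List genes called only with the block (all at an unadjusted p under 0.05) were picked after their values were seen where the rule does not name them. The same holds for Atf4, Trib3, Ddit4, Atf3, Ddit3, Wars and the marker genes. Alternatives were another pseudocount, no filter, 2 scalings, coverage, the assembled locus, no variance trend, the replicate block and leaving out libraries. Combinations with the block and leaving out whole pairs were chosen after seeing the data.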

Additional observations from a re-analysis of the deposited data

How the results depend on the processing

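Under the 22 other settings 7 of the 8 tested carriers kept a lower level with PGE2. Slc3a2 turned sign, at 0.04 when vehicle replicate 1 was left out, 0.01 for PGE2 replicate 3, and 0 for vehicle replicate 2 or the pair numbered 1 (0 with the block as well). The count of carriers that fell was 0 with FPKM, 1 with the replicate block, 2 in coverage with the block, 1 with median ratio scaling and the block, 2 with the block and without the pair numbered 1, and 1 without the pair numbered 3 and with no block. Leaving out single libraries gave 0 for carriers higher or lower. The shift in the gap between the subunits was -0.63 to -0.48 over the left-out libraries.

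Of all tested genes, 69 rose and 29 fell, against 33 and 12 with no filter, 112 and 47 in coverage, 215 and 180 with the replicate block, 327 and 310 in coverage with the block, and 226 and 125 with median ratio scaling and the block. Without a variance trend 16 fell. Leaving out 1 library gave 16 to 53 rises and 4 to 16 falls. Leaving out the pair numbered 1, 2 or 3 gave 1, 3 and 94 rises and 0, 3 and 44 falls, and with the block 524, 105 and 75 rises and 439, 46 and 40 falls. The cause of these moves was not tested, beside the fewer samples or the larger number of genes tested. With 2 libraries a group the fit leans on the spread shared by all genes. Medians of lists moved with single libraries: that of lysosomal carriers from -0.14 to -0.06 and that of glutathione genes from -0.1 to -0.04.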
